A study of Homo sapiens with 105 samples.

Results

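Described here are 9 genes of the complement system and its regulators (C3, CFB, C1R, C1S, C5, CFI, CD46, CD55 and CD59), taken by symbol from the 63241 genes of a count table, in which all 9 were found. Complement is a cascade of blood and tissue proteins that tags and lyses foreign surfaces. It starts with recognition proteases (C1R and C1S), centres on the cleavage of C3, is amplified by factor B (CFB), and ends with the pore that C5 initiates. Host cells are protected by factor I (CFI), a protease in the fluid that inactivates C3b, and by surface regulators: CD46 is the cofactor of factor I, CD55 speeds the decay of the C3 convertases, and CD59 blocks the pore. Intestinal epithelial cells make some of these proteins themselves and carry the surface regulators.

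RNA of Caco-2 cells (established from a human colon adenocarcinoma) was sequenced for 28 groups after incubation with bacterial extracellular vesicles (BEVs), transfection with vesicle RNA, or the matching controls. PmOMV cultures received 6e+09 outer membrane vesicles (OMVs) of Proteus mirabilis DSM 4479, EfMV cultures 7.5e+09 membrane vesicles (MVs) of Enterococcus faecalis DSM 20478 and LcMV cultures 1.5e+11 MVs of Lacticaseibacillus casei DSM 20011. PmRNA, EfRNA and LcRNA cultures were transfected with 2, 5 and 100 ng of RNA from these vesicles, LPSinc cultures received P. mirabilis LPS in the medium and LPStrans cultures received it by transfection, and the controls were PBS for anything added to the medium and a negative control siRNA (ANC) at 2, 5 or 100 ng (ANC2, ANC5, ANC100) for transfections. Cells were collected after 10 and 24 h, and after 48 h as well for LcMV, LcRNA, ANC100 and PBS.
The labels give LPS as 0.2 (medium) and 1 ng per µl (transfected), whereas the methods of the study give ng per ml. No group carries a genetic change, and the cells of all groups are the same line.

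The main reading used 66 libraries and set aside the other 39, whose column names carry 3 lanes of 1 flow cell. In it 20 groups held 2 libraries, 6 held 3 and 2 held 4, total counts ran from 632659 to 8558755 with a median of 5563438, and 19233 genes were tested. All 10 intestinal epithelial markers fixed for the check were measured at 1 CPM (a count scaled to 1e6 counts per library) or more on average, with a summed level of 4450 to 8860 CPM per library. Values in CPM use library sizes scaled by the trimmed mean of M-values. Of the markers of other cells, 5 of 8 for macrophages and monocytes reached 1 CPM on average (summed level 22.2 to 222 CPM per library, with LYZ at 88.8, CSF1R at 8.72 and CD14 at 5.69 CPM on average), as did 1 of 4 for other leukocytes (0 to 7.74 CPM, CD3E at 2.03 CPM), 3 of 5 for fibroblasts (28.4 to 93 CPM, COL1A1 at 35.8 and PDGFRA at 21.5 CPM) and 1 of 4 for endothelium (2.73 to 12.2 CPM, PECAM1 at 5.15 CPM). The leukocyte marker PTPRC had 2 counts over all 66 libraries, the B cell marker MS4A1 1 count and the endothelial marker KDR 0. With the 39 libraries added to the fit, 0 of the members passed edgeR's test in any treatment comparison (C3 with P. mirabilis OMVs was then 1.26 ± 0.37 log2 units over PBS at 10 h, adjusted p = 0.551, and 1.41 ± 0.37 at 24 h, adjusted p = 0.762), so that each treatment call given here holds for the 66 libraries only. Of all 18775 genes in that fit, 6 passed for these OMVs against PBS at 10 h and 0 at 24 h. In RNA of whole cultures, fewer cells of a kind and less RNA per cell cannot be told apart.

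How much of a member could be counted differed widely, because the counting options listed by the study assign no read that falls on exons of several genes at the same time. By GENCODE v44 on GRCh38, C3 lies on chromosome 19 from 6677704 to 6730562 (minus strand) and shares none of the 5231 bases of its MANE Select transcript, the reference transcript of the gene, with another gene. CFB lies on chromosome 6 from 31945650 to 31952086 (plus strand). Of its 2476 MANE bases, 2249 (90.8%) are also exons of a readthrough gene, ENSG00000244255, which was listed at 0 counts in every library. Reads on these bases were lost to CFB, and its level is a lower limit. All annotated exons of CFB span 5312 bases, of which 2249 are shared with that gene and 24 with C2, so exons outside the MANE transcript could be counted too. CFI lies on chromosome 4 from 109731008 to 109802150 (minus strand) and shares 79% of its MANE bases with ENSG00000285330, also listed at 0.

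The other members were less affected. C1R (chromosome 12, 7080214 to 7092540, minus strand) shares 25.2% of its MANE bases with C1RL, and CD46 (chromosome 1, 207752037 to 207795513, plus strand) shares 6%, on the opposite strand, with the long non-coding gene MIR29B2CHG. CD59 (chromosome 11, 33703010 to 33736479, minus strand) shares all 384 coding bases with ENSG00000284969, yet 6938 of its 7563 MANE bases stay countable, all of them untranslated. C1S (chromosome 12, 6988259 to 7071032, plus strand), C5 (chromosome 9, 120932987 to 121075195, minus strand) and CD55 (chromosome 1, 207321519 to 207386804, plus strand) share no MANE base. No strand setting is among the listed options, so reads of genes on opposite strands cannot be told apart.

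**Figure D1:**
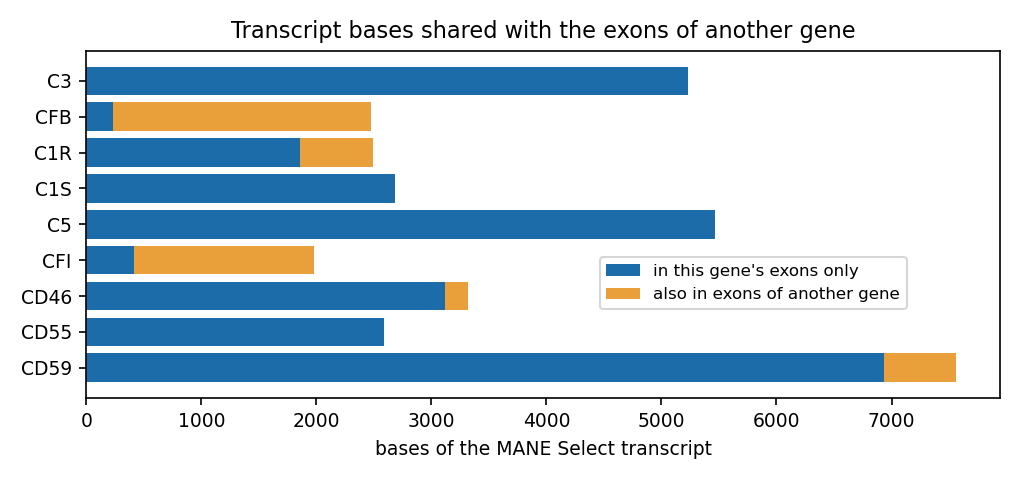
Bases of the MANE Select transcript of each member (horizontal axis), divided into bases found in exons of that gene only (blue) and bases also found in exons of another gene (orange), by GENCODE v44. CFB keeps 227 of 2476 bases and CFI 416 of 1978, whereas C3, C1S, C5 and CD55 keep all of theirs.

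CFB, C1R, CD46 and CD59, which passed the test as higher at 48 h than at 24 h in the fit over the control cultures (values are given further on), have an entry in the RefSeq table of promoters (GRCh38.p14), whereas C3 has none. Part of the first listed window of each is given here 5′ to 3′ on the strand of the gene, because these members had that call in common. Each stretch ends before the first annotated exon base inside that window. The CFB stretch lies inside the annotated gene, which starts at 31945650, whereas those of C1R, CD46 and CD59 lie before the annotated gene. Capitals mark a match to one of 4 searched motifs, on either strand.
CFB, chr6:31945845-31945974, plus strand: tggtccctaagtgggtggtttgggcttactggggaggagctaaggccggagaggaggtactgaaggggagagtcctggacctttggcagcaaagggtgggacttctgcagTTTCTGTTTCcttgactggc
C1R, chr12:7092541-7092695, minus strand: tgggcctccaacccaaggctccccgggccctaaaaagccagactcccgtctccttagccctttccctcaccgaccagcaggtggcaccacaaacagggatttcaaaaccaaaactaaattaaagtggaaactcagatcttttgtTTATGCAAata
CD46, chr1:207751788-207752036, plus strand: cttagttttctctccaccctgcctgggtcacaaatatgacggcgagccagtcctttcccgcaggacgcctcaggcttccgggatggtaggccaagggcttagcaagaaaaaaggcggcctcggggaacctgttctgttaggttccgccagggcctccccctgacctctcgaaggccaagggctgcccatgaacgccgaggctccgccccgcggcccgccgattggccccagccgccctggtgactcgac
CD59, chr11:33736480-33736729, minus strand: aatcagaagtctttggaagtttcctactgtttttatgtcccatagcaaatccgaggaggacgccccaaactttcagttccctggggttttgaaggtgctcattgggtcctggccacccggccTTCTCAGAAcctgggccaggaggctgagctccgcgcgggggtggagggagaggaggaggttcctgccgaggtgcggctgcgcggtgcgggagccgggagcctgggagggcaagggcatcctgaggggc

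The capitals in CFB are the core of an interferon response element from -140 to -131 relative to the start, those in C1R a match of TTGCNNAA (the motif of C/EBP factors) on the opposite strand from -106 to -99, and those in CD59 a match of TTCNNNGAA (the motif of STAT factors) from -128 to -120. CFB holds a further match of TTCNNNGAA from -92 to -84, past the first annotated exon base inside the window and so not shown. In the other listed windows, each numbered from its own start, C1R holds TTCNNNGAA from -86 to -78 and TTGCNNAA from -167 to -160 in window 2, and CD59 holds TTGCNNAA from -191 to -184 and from -53 to -46 in window 3. Over all listed windows, TTCNNNGAA is thus found in CFB, C1R and CD59, and TTGCNNAA in C1R and CD59. No window of CD46 holds any of these motifs, and no window of the 4 genes holds the κB consensus. Of 35116 promoter windows of 300 bases, 3.57% hold the interferon response element core, 10.5% TTGCNNAA, 7.66% TTCNNNGAA and 5.91% the κB consensus. These shares are per window and not per gene: CFB has 1 listed window, C1R and CD46 have 2 each and CD59 has 4. A match is a description of letters, not of binding.

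CD46, CD55 and C3 were the members with most reads. In the 23 kept control libraries (PBS and siRNA, all times) CD46 averaged 236 ± 44.9 CPM, CD55 72.4 ± 10.8 CPM, C3 67.3 ± 14.5 CPM and CD59 49.4 ± 8.2 CPM (mean ± SD). C5 (15.6 ± 4.24 CPM), C1S (13.3 ± 5.26 CPM), C1R (8.75 ± 2.41 CPM) and CFB (7.54 ± 3.96 CPM) were lower. CFI had 31 counts in all 66 libraries, 0 to 2 per library with a count in 27, did not pass the filter on low counts and is not described further; given its shared exons this is no measure of its absence.

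On a scale per kilobase of countable MANE bases the order of the control levels was CD46 (75.6 ± 14.4 CPM per kb), CD55 (28 ± 4.17), C3 (12.9 ± 2.77), CD59 (7.12 ± 1.18), C1S (4.96 ± 1.96), C1R (4.7 ± 1.3) and C5 (2.86 ± 0.776). CD59 and C1S, C1S and C1R, and C1R and C5 had overlapping ranges of mean ± SD. CFB was left out of this order because other annotated exons could add reads to its 227 countable MANE bases. On this scale it had 33.2 ± 17.4 CPM per kb, which overlaps CD55. Such exons can add reads to every member: all exons span 15505 bases in CD46, 10254 in CD55 and 11577 in C3. The order thus depends on MANE bases as the divisor. With that divisor, the regulators CD46 and CD55 stood above the components C3, C1S, C1R and C5.

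P. mirabilis OMVs were followed by a higher level of C3, the central component, at 10 and at 24 h, by a lower level of C5 at 10 h, and by no change past the test in the other 6 tested members. The median over the 8 was 0.03 log2 units at 10 h and 0.06 at 24 h, beside medians near 0 over all genes. At 10 h C3 stood at 224.5, 245.6 and 250.5 CPM in the PmOMV libraries, against 62.4 and 80.4 CPM in the PBS libraries. The groups did not overlap, and within replicate 2 the ratio was 3.6 and within replicate 3 it was 3.06. The fitted difference was 1.68 ± 0.19 on the log2 scale, 3.21-fold (95% interval 1.3 to 2.06 log2 units, adjusted p = 2.16e-07).

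At 24 h C3 stood at 220 and 256 CPM in the PmOMV libraries, against 53.6 and 67.7 CPM in the PBS libraries. Replicate 2 gave a ratio of 4.11 and replicate 3 a ratio of 3.79, and the fitted log2 difference was 1.98 ± 0.2, 3.93-fold (adjusted p = 2.8e-08). The difference between the 24 h effect and the 10 h effect was 0.29 ± 0.27 log2 units (95% interval -0.26 to 0.84, adjusted p = 0.919), and 0.0312% of genes passed that test. Of the 19233 genes tested, 1.09% passed against PBS at 10 h and 0.109% at 24 h. Leaving out each of the compared libraries in turn kept C3 past the test every time, at 1.53 to 1.75 log2 units at 10 h and 1.86 to 2.1 at 24 h.

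**Figure D2:**
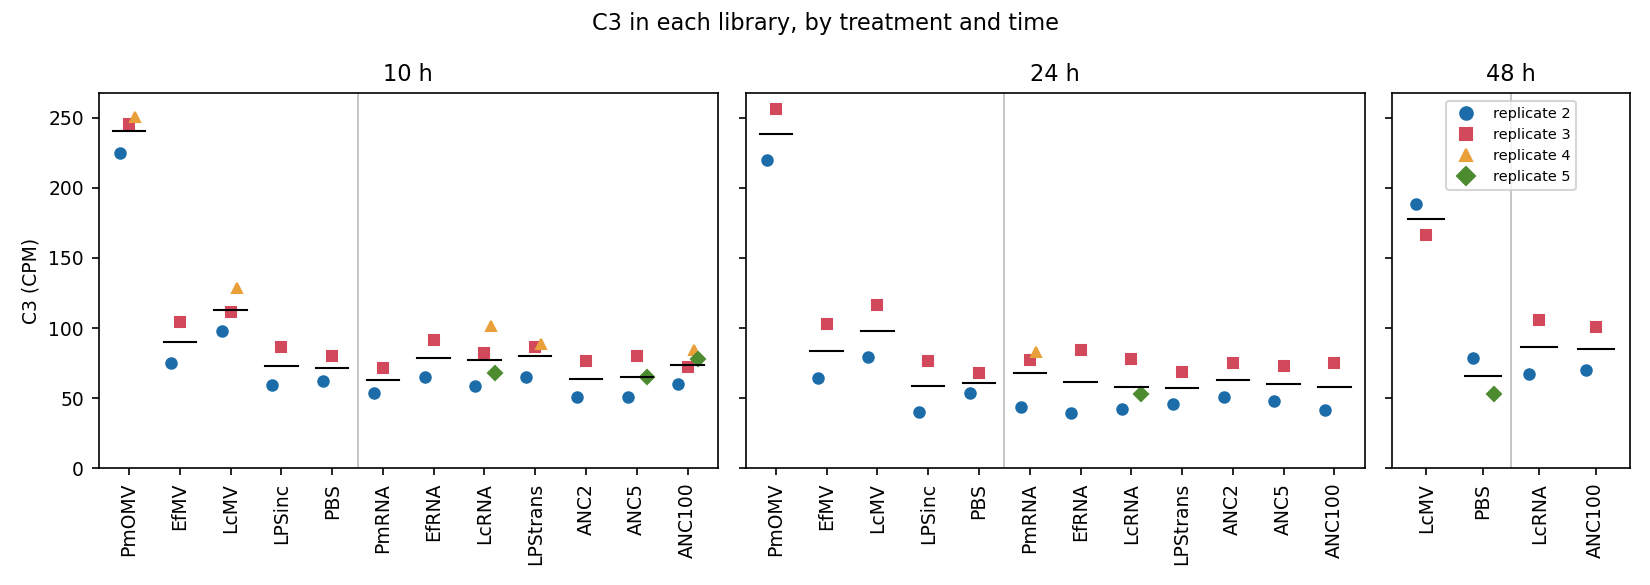
C3 level in CPM (vertical axis) in each of the 66 libraries, by treatment and time; symbols mark the replicate number, black bars the group mean, and the grey line separates additions to the medium (left) from transfections (right). The 7 libraries of PmOMV at 10 and 24 h and LcMV at 48 h lie between 167 and 256 CPM, and the 59 others between 39.2 and 128 CPM.

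C5, which initiates the pore, moved the other way at 10 h. Its level was 10, 6.17 and 5.69 CPM in the PmOMV libraries, against 19.7 and 11 CPM in the PBS libraries. The groups did not overlap, by a narrow margin, and the ratio was 0.509 in replicate 2 and 0.562 in replicate 3. C5 fell by 0.88 ± 0.19 log2 units, to 0.544-fold (95% interval -1.25 to -0.5, adjusted p = 0.0026). This call was lost without PBS_10h replicate 2 (-0.77 log2 units, adjusted p = 0.081) and without PBS_10h replicate 3 (-1.03 log2 units, adjusted p = 0.0619), and with no replicate block (-0.99 ± 0.41 log2 units, adjusted p = 1). CNTRL, which shares 408 exon bases with C5 on the opposite strand, none of them in its MANE transcript, differed by -0.06 ± 0.14 log2 units (adjusted p = 0.932).

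At 24 h C5 stood at 15.2 and 10.9 CPM in the PmOMV libraries, against 16.7 and 14.1 CPM in the PBS libraries, and these ranges overlapped. The log2 difference was -0.22 ± 0.19 (95% interval -0.61 to 0.16, adjusted p = 1). The change in the effect from 10 to 24 h was 0.65 ± 0.26 log2 units, with an unadjusted edgeR p of 0.0152 and an adjusted p of 0.673, so a difference between the times was not established.

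**Figure D3:**
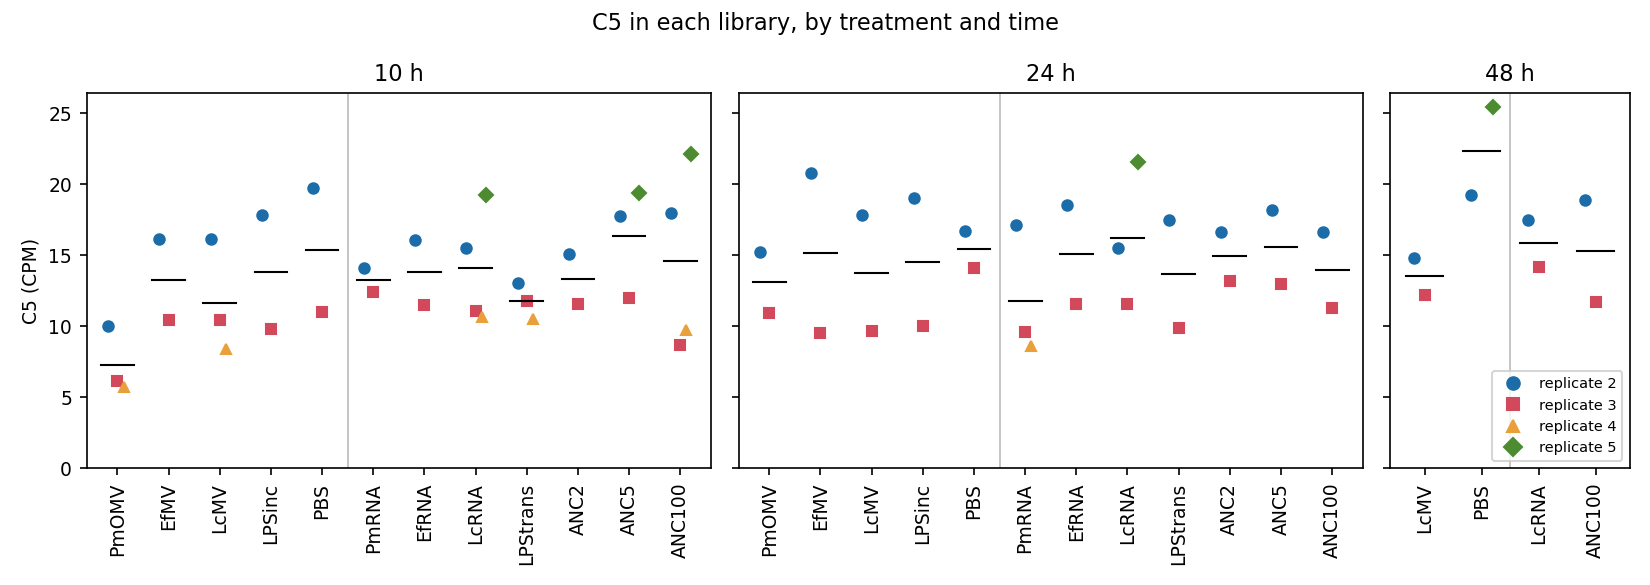
C5 level in CPM (vertical axis) in each of the 66 libraries, arranged and marked as in the plot of C3. The 3 PmOMV libraries at 10 h reach at most 10 CPM, and replicate 2 lies above replicate 3 in every group that holds both.

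None of the remaining members passed the test against PBS with the OMVs, which does not show that they were unchanged. Over the 29 comparisons named below, the 95% limits ran from -1.36 to 1.115 log2 units for C1R and -0.899 to 0.69 for C1S. CFB, the protease of the alternative convertase, had 10.5, 3.8 and 5.51 CPM in the PmOMV libraries at 10 h, against 7.96 and 5.07 CPM in the PBS libraries, which lay inside the PmOMV range. The log2 difference of CFB was 0.02 ± 0.25 at 10 h (95% interval -0.49 to 0.54) and 0.32 ± 0.25 at 24 h (-0.18 to 0.82). At the few reads of CFB, a rise of up to 0.82 log2 units at 24 h lies inside the interval. The intervals were narrower for the surface regulators: over all 29 comparisons of a treatment with a control, with LPS or with another vesicle, CD46 differed by -0.11 to 0.08 log2 units, CD55 by -0.23 to 0.2 and CD59 by -0.22 to 0.2, with no call, and the 95% limits of all 29 ran from -0.26 to 0.22 for CD46, -0.44 to 0.43 for CD55 and -0.46 to 0.43 for CD59.

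Since OMVs carry LPS, the study also gave LPS alone. Against LPSinc, C3 was higher with the OMVs at both times. At 10 h the PmOMV libraries (224.5, 245.6 and 250.5 CPM) stood against 59 and 86.5 CPM in the LPSinc libraries, a log2 difference of 1.65 ± 0.18 (adjusted p = 4.75e-08), while 3.15% of all genes passed. At 24 h the PmOMV libraries (220 and 256 CPM) stood against 40.4 and 76.3 CPM in the LPSinc libraries, a log2 difference of 2.08 ± 0.19 (adjusted p = 5.01e-09), while 0.151% of all genes passed. These comparisons and those with PBS share the PmOMV libraries. The summed epithelial markers were 7910 to 8860 CPM in PmOMV and 7490 to 8070 CPM in PBS at 10 h, and 6600 to 7310 CPM in PmOMV and 6710 to 7300 CPM in PBS at 24 h; those of macrophages were 29 to 200 CPM in PmOMV and 26.8 to 175 CPM in PBS at 10 h, and 34.3 to 198 CPM in PmOMV and 27.8 to 199 CPM in PBS at 24 h. The part of either list in these results was not tested. LYZ, which has the most reads of the macrophage list, is also made by epithelium.

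C5 had 10, 6.17 and 5.69 CPM with the OMVs at 10 h, against 17.8 and 9.78 CPM in the LPSinc libraries, and these ranges overlapped. The fitted difference was -0.78 ± 0.17 log2 units (adjusted p = 0.00261). This call was lost without LPSinc_10h replicate 2 (-0.61 log2 units, adjusted p = 0.257) and with no replicate block (-0.93 ± 0.39 log2 units, adjusted p = 0.616). LPSinc itself left C3 at 0.03 ± 0.21 log2 units over PBS at 10 h (95% interval -0.39 to 0.46) and -0.11 ± 0.21 at 24 h (-0.54 to 0.32). CFB differed by -0.13 ± 0.28 and -0.13 ± 0.24 log2 units in LPSinc against PBS at 10 and 24 h. Of all genes 0% passed for LPSinc against PBS at either time, with 751 and 450 genes at an unadjusted edgeR p under 0.05 and 0 called by DESeq2 and limma voom; of the members C1R alone reached this level, at 10 h (0.57 ± 0.27 log2 units, adjusted p = 1).

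L. casei MVs were followed by a higher C3 level at 48 h. The 2 LcMV libraries had 188.8 and 166.6 CPM, against 78.75 and 53.2 CPM in the PBS libraries, with no overlap. The log2 difference was 1.3 ± 0.2, 2.46-fold (95% interval 0.89 to 1.71, adjusted p = 3.21e-04), and 2.7% of all genes passed in this comparison. The summed epithelial markers were 5330 to 5930 CPM in LcMV, 4450 to 5080 CPM in PBS and 4550 to 6200 CPM in ANC100 at 48 h. Those of macrophages and monocytes were 28.3 to 165 CPM in LcMV, 27.2 to 28.1 CPM in PBS and 28.6 to 168 CPM in ANC100. The part of either list in the result was not tested. The PBS group kept replicates 2 and 5 and the LcMV group replicates 2 and 3; within replicate 2, which both have, the ratio was 2.4. With replicates 2 and 3 only, which leaves 1 PBS library, the difference was 0.97 ± 0.24 log2 units and missed the threshold (adjusted p = 0.0616), and with no replicate block it missed it as well (1.43 ± 0.36, adjusted p = 0.0692).

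Against the siRNA cultures of the same time, which kept replicates 2 and 3, C3 was again higher (ANC100 libraries 69.75 and 100.9 CPM). The ratio was 2.71 in replicate 2 and 1.65 in replicate 3, and the log2 difference 1.11 ± 0.18 (adjusted p = 0.0135), where 0.0156% of all genes passed. The call was lost without LcMV_48h replicate 2 (0.74 log2 units, adjusted p = 0.59) and without ANC100_48h replicate 2 (1.05 log2 units, adjusted p = 0.505). C1R in LcMV at 48 h differed by -0.67 ± 0.25 log2 units from PBS (adjusted p = 0.143) and by -0.89 ± 0.23 from ANC100 (adjusted p = 0.273), neither past the test; with the replicate block fitted within each time, the difference from ANC100 passed it (-0.9 log2 units, adjusted p = 0.0262). CFB in LcMV at 48 h had 12.7 and 8.26 CPM, against 16.7 and 18.2 CPM in PBS and 14.05 and 6.39 CPM in ANC100, with log2 differences of -0.47 ± 0.22 (adjusted p = 0.264) and 0.03 ± 0.21 (adjusted p = 1). The CFB levels of LcMV and PBS did not overlap, yet replicate 3, in which CFB was lower in the fit over all groups, is absent from PBS at 48 h.

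At the earlier times the C3 difference between L. casei MVs and PBS did not pass the test. At 10 h it had 98.1, 111 and 128 CPM in the LcMV libraries, against 62.4 and 80.4 CPM in PBS (0.57 ± 0.19 log2 units, adjusted p = 0.462, 0.0468% of genes past the test). At 24 h it had 79.5 and 117 CPM in the LcMV libraries, against 53.6 and 67.7 CPM in PBS (0.68 ± 0.2 log2 units, adjusted p = 1, 0.0052% of genes past the test). Neither pair of groups overlapped. With so few libraries in a group this can arise by chance, here and in the other comparisons. How many of all genes did so was not counted. The effect at 48 h exceeded that at 24 h by 0.62 ± 0.29 log2 units (adjusted p = 0.649, 0.0208% of genes past the test), and that at 24 h exceeded that at 10 h by 0.11 ± 0.28 (adjusted p = 1, 0% of genes), so no change of the effect with time was established. CFB differed by -0.16 ± 0.27 and -0.11 ± 0.24 log2 units at 10 and 24 h.

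With E. faecalis MVs no member passed the test at 10 or 24 h, and 0% of all genes did, with 648 genes at an unadjusted edgeR p under 0.05 at either time and 0 genes called by DESeq2 and limma voom. C3 had 75.3 and 104.3 CPM in the EfMV libraries at 10 h (0.34 ± 0.21 log2 units over PBS, adjusted p = 1) and 64.4 and 102.6 CPM at 24 h (0.48 ± 0.22 log2 units, unadjusted edgeR p of 0.0371, adjusted p = 1). At both times the EfMV and PBS ranges overlapped. CFB differed from PBS by -0.49 ± 0.3 log2 units at 10 h and 0.3 ± 0.27 at 24 h.

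**Figure D4:**
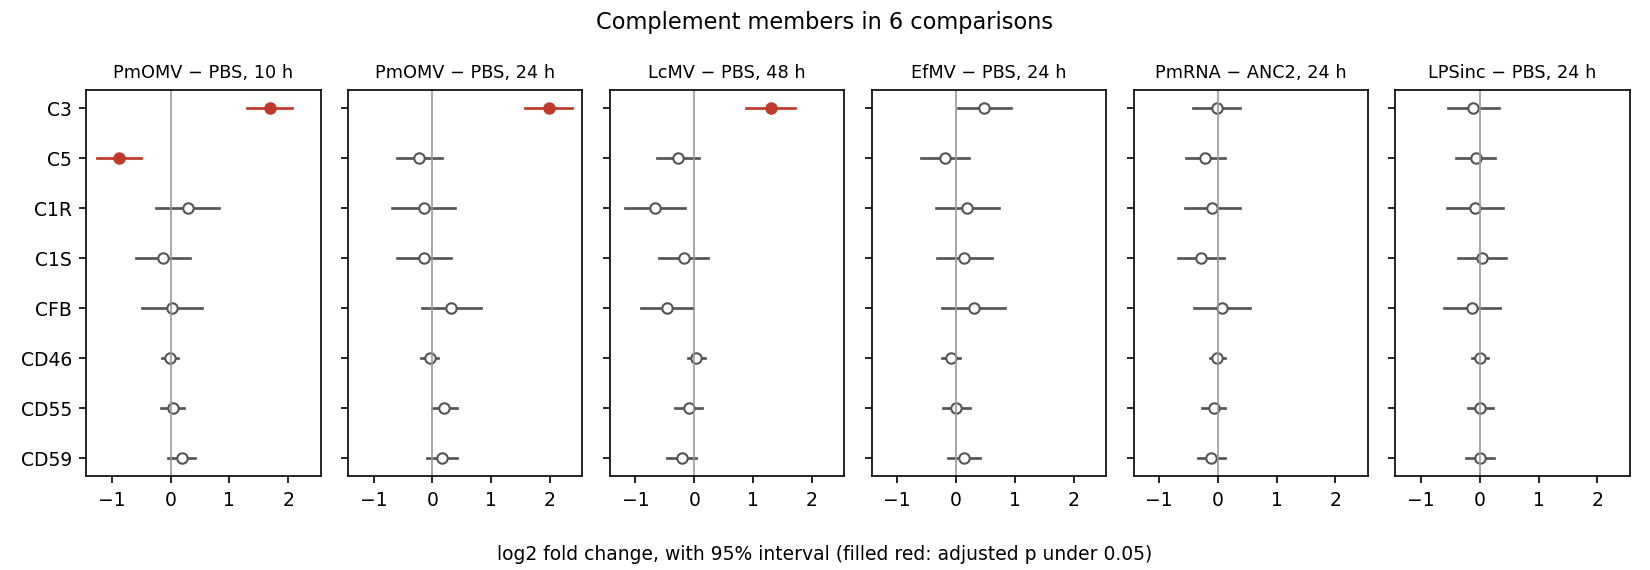
Log2 fold change (horizontal axis) of the 8 tested members in 6 comparisons (PmOMV minus PBS at 10 and 24 h, LcMV minus PBS at 48 h, EfMV minus PBS, PmRNA minus ANC2 and LPSinc minus PBS at 24 h), with 95% intervals; filled red points have an adjusted p under 0.05. C3 lies at 1.68 and 1.98 with P. mirabilis OMVs and at 1.3 with L. casei MVs at 48 h, C5 at -0.88 with the OMVs at 10 h, and all other points are open.

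C3 was higher with P. mirabilis OMVs than with the MVs of either other species; their doses differ by design and are part of each comparison. PmOMV cultures exceeded LcMV cultures by 1.11 ± 0.15 log2 units at 10 h (adjusted p = 8.48e-06, 0.442% of genes past the test) and 1.3 ± 0.18 at 24 h (adjusted p = 9.48e-05, 0.0676%). They exceeded EfMV cultures by 1.34 ± 0.18 log2 units at 10 h (adjusted p = 8.14e-06, 0.879%) and 1.49 ± 0.2 at 24 h (adjusted p = 7.1e-05, 0.052%). C5 at 10 h was lower in PmOMV than in LcMV by -0.67 ± 0.16 log2 units (adjusted p = 0.0251) and than in EfMV by -0.73 ± 0.18 (adjusted p = 0.0219); both calls were lost with replicates 2 and 3 only (adjusted p = 0.126 and 0.082). All 6 of these calls were lost with no replicate block, as were both calls on the difference between OMVs and OMV-RNA that follow. Of all 19233 genes, the fit without the block called 8 and 4 for PmOMV against LcMV at 10 and 24 h, and 9 and 3 against EfMV. CFB did not pass in any of the comparisons between species, at 0.02 to 0.51 log2 units for PmOMV over the other vesicles. Between LcMV and EfMV, C3 differed by 0.23 ± 0.18 log2 units at 10 h (0.0052% of genes past the test) and 0.2 ± 0.21 at 24 h (0.0104%), neither past the test.

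Transfected vesicle RNA gave no such difference. In the 9 comparisons of transfected RNA or LPS with siRNA, 0 of the 8 tested members passed, 0 had an unadjusted p under 0.05, DESeq2 and limma voom called 0, and 0% of all genes passed, with 521 to 1222 genes at an unadjusted p under 0.05. C3 differed by -0.17 to 0.25 log2 units over the 9, and its 95% intervals ran from -0.65 to 0.67. With OMV-RNA at 24 h C3 had 43.4, 76.9 and 83.2 CPM in the PmRNA libraries, against 50.9 and 75.3 CPM in the ANC2 libraries, and the ranges overlapped. CFB differed by -0.46 to 0.56 log2 units over the 9 comparisons, C1R by -0.53 to 0.09, C5 by -0.22 to 0.08 and CD55 by -0.07 to 0.16. PmRNA against LPStrans gave C3 differences of -0.23 ± 0.23 log2 units at 10 h and 0.15 ± 0.22 at 24 h, and CFB differences of -0.41 ± 0.33 and -0.21 ± 0.25, with 0% of all genes past the test at either time.

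Whether vesicles and their RNA differ was tested directly, as the vesicle effect over PBS minus the RNA effect over siRNA. For P. mirabilis the C3 effect of the OMVs exceeded that of OMV-RNA by 1.68 ± 0.31 log2 units at 10 h (95% interval 1.05 to 2.31, adjusted p = 0.00641, 0.161% of genes past the test) and by 2 ± 0.28 at 24 h (1.44 to 2.56, adjusted p = 6.66e-05, 0.0364%). For L. casei the C3 difference at 48 h was 1.27 ± 0.28 log2 units and missed the threshold (adjusted p = 0.0593, 0.0988% of genes past the test). Over all 10 differences of effects tested, those between times included, 2 members' tests passed with edgeR and 3 with DESeq2 and with limma voom. At 10 and 24 h the L. casei difference was 0.52 ± 0.24 and 0.71 ± 0.3 (0.0208% and 0% of genes). For E. faecalis it was 0.1 ± 0.3 and 0.46 ± 0.3 (0% and 0.0052%). The CFB differences, of which none passed, ran from -1.05 ± 0.42 for E. faecalis at 10 h to 0.49 ± 0.42 for P. mirabilis at 10 h.

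The controls themselves differed little for these genes. Lipofection of siRNA against PBS gave 0 member calls at 10, 24 and 48 h with edgeR, DESeq2 and limma voom. With edgeR 0%, 0% and 0.25% of all genes passed the test, and 1, 0 and 1 members had an unadjusted p under 0.05. Of all 19233 genes DESeq2 called 35, 0 and 136 at these times, and limma voom 0, 2 and 48. C3 differed by -0.08 ± 0.18, -0.02 ± 0.17 and 0.19 ± 0.21 log2 units. The CFB difference at 48 h was -0.5 ± 0.21 log2 units (adjusted p = 0.368), where the groups compared keep different replicate numbers.

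More members passed the test over culture time than in any treatment comparison, in contrasts in which many genes passed as well. These contrasts average several control groups, so smaller differences could pass than in a treatment comparison. The number of calls therefore does not rank culture time against treatment. At the earlier step the share of members past the test was also close to that of all genes. In the siRNA and PBS cultures 3 of 8 members were higher at 24 h than at 10 h, where 33.6% of all genes passed the test in either direction: CFB by 0.45 ± 0.13 log2 units (adjusted p = 0.00464), C1S by 0.32 ± 0.11 (adjusted p = 0.0136) and CD46 by 0.18 ± 0.04 (adjusted p = 1.23e-05). At 48 h against 24 h, in PBS and ANC100, 6 of 8 passed, where 28.1% of all genes did. CFB was higher by 0.67 ± 0.16 log2 units, C1R by 0.44 ± 0.17, C3 by 0.43 ± 0.15, CD46 by 0.42 ± 0.05 and CD59 by 0.33 ± 0.08, whereas CD55 fell by 0.27 ± 0.08. At 24 against 10 h C3 differed by -0.17 ± 0.11 (adjusted p = 0.218). C5 passed at neither step. The median over the 8 members was 0.12 log2 units at the earlier step and 0.38 at the later, beside 0.03 and 0.04 over all genes.

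CD46 averaged 206 ± 12.8 CPM at 10 h, 234 ± 15.3 CPM at 24 h and 320 ± 29.7 CPM at 48 h in 11, 8 and 4 control libraries, with the lowest library at 48 h (292 CPM) above the highest at 24 h (255 CPM). CFB averaged 5.32 ± 1.8, 7.44 ± 1.6 and 13.8 ± 5.25 CPM at the same times. Its single replicate 3 library at 48 h had 6.39 CPM, within the 5.62 to 6.74 CPM of the replicate 3 libraries at 24 h, and the replicate 2 and 5 libraries at 48 h had 14.05 to 18.2 CPM. CD55 averaged 76.5 ± 10.4, 72.6 ± 6.15 and 60.7 ± 12.3 CPM. Its lowest values were 49.5 and 50.8 CPM in the replicate 2 libraries at 48 h, against 62.7 to 74.8 CPM in replicate 2 at 24 h, while replicate 3 had 73.5 CPM at 48 h and 73.7 to 80 CPM at 24 h. CD59 had 47.3 CPM in replicate 3 at 48 h, within the 42.7 to 49.7 CPM of replicate 3 at 24 h, while replicate 2 had 64.8 and 74.4 CPM at 48 h and 48.7 to 54.4 CPM at 24 h. For CFB, CD55 and CD59 the difference at 48 h was therefore clear in part of the replicates only. The step in C1R did not pass without the filter on low counts (0.4 ± 0.16 log2 units, adjusted p = 0.0939), with replicates 2 and 3 only (0.35 ± 0.19, adjusted p = 0.207) or with no replicate block (0.53 ± 0.24, adjusted p = 0.144). The step in C3 did not pass without the filter on low counts (0.38 ± 0.15 log2 units, adjusted p = 0.106) nor without the libraries under 2000000 counts (adjusted p = 0.0698). Of the 9 calls over culture time 3 were left with no replicate block, those of CD46 at both steps and of CD59. The calls of CFB at both steps, C1S, C1R, C3 and CD55 were lost there. With the 39 set-aside libraries added 0 were left. Of all genes, 3771 and 2554 of 19233 passed at these steps with no block, and 1598 and 12 of 18775 with the 39 libraries and the block.

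Between replicate 3 and replicate 2, fitted over all groups, all 8 tested members differed past the test, where 61.5% of all genes did. C3 was higher in replicate 3 by 0.48 ± 0.06 log2 units and CD55 by 0.22 ± 0.03, whereas CFB (-0.75 ± 0.07), C1S (-0.68 ± 0.06), C5 (-0.6 ± 0.05), C1R (-0.26 ± 0.07), CD46 (-0.18 ± 0.02) and CD59 (-0.17 ± 0.03) were lower. The median level of C5 was 11.3 CPM in the 27 replicate 3 libraries and 16.9 CPM in the 28 replicate 2 libraries, and that of CFB 5.19 CPM and 8.84 CPM. The labels do not say what a replicate number stands for, and its part in any result was taken up only as a block in the fit. C1R and C1S were each listed at 0 in the same library, PmRNA_10h replicate 3, the shallowest at 632659 total counts.

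**Figure D5:**
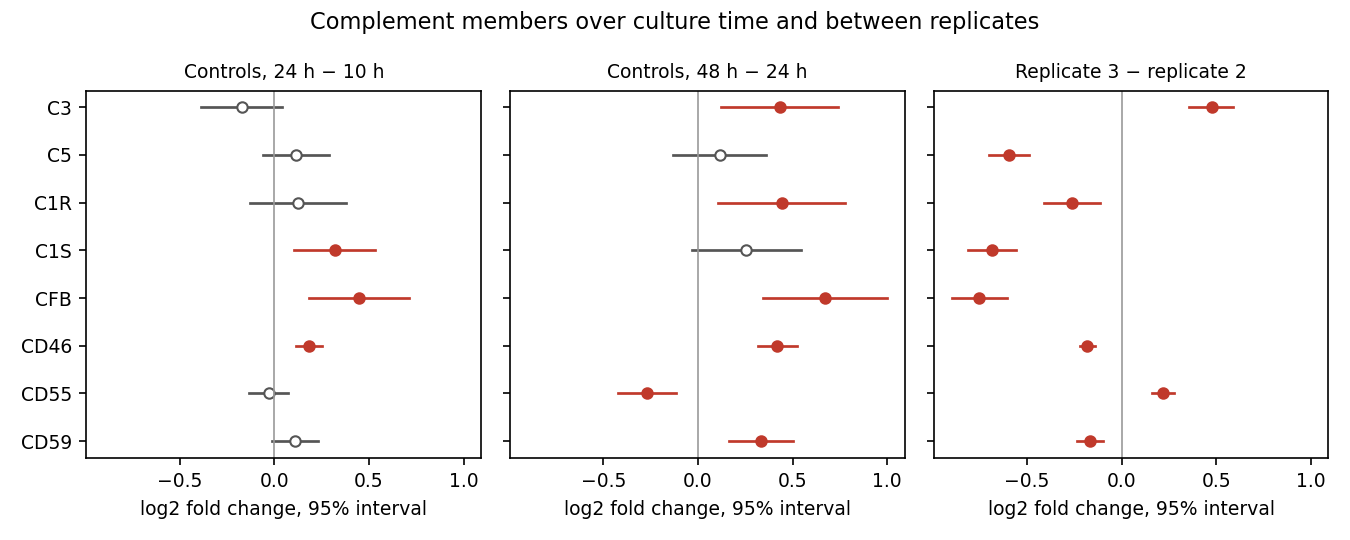
Log2 fold change (horizontal axis) of the 8 tested members between culture times in the control groups (left and middle panel) and between replicate numbers over all groups (right panel), with 95% intervals; filled red points have an adjusted p under 0.05. Between 24 and 48 h CFB, C1R, C3, CD46 and CD59 lie to the right of 0 and CD55 to the left, and between the replicates all 8 points are filled.

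The remainder of the complement system was taken from a list of 52 genes. Of these 18 could be tested, among them 4 of 15 recognition molecules and proteases of the classical and lectin pathways, 8 of 15 regulators in the fluid phase, 1 of 6 terminal components and 3 of 9 receptors, and 8 of the 52 had 0 counts in all 66 libraries. Against a treatment control, LPS or another vesicle, 1 call was found: C1QBP, a protein of mitochondria and the cell surface that binds C1q, was higher in LcMV at 48 h than in PBS, by 0.41 ± 0.11 log2 units (adjusted p = 0.022), where 2.7% of all genes passed. In the comparisons of PmOMV with PBS and with LPS, 0 of the 18 passed, with edgeR. Of all genes 1.09% and 0.109% passed against PBS at 10 and 24 h, and 3.15% and 0.151% against LPS.

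Over culture time 3 of the 18 were higher at 24 h than at 10 h (C1RL, CPN1 and SUSD4) and 3 lower (MBL2, MASP2 and C1QBP), where 33.6% of all genes passed in either direction. At 48 h against 24 h, 5 were higher and 3 lower, where 28.1% of all genes passed. C1RL, a relative of C1R, was higher by 0.5 ± 0.08 log2 units, C2, the classical counterpart of CFB, by 0.68 ± 0.18, VTN, which binds the terminal complex, by 0.52 ± 0.06, CPN1, a subunit of the carboxypeptidase that trims C3a and C5a, by 0.41 ± 0.14 and the integrin chain ITGB2 by 2.21 ± 0.54. The ITGB2 value rests on few reads, with 176 counts over all 66 libraries and 0.488 CPM on average. C1QBP fell by 0.71 ± 0.07, the membrane regulator SUSD4 by 0.49 ± 0.18 and CLU, another inhibitor of the terminal complex, by 0.34 ± 0.07. Between replicates 3 and 2, 3 of the 18 were higher and 12 lower, where 61.5% of all genes passed.

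Among all genes tested, those whose levels followed C3 most closely over the 66 libraries, once the fitted time and replicate means were taken off, were OR2I1P (Pearson r of 0.85), TNFAIP3 (0.82), PI3 (0.82), PERP (0.77) and IKBKE (0.76). For CFB they were KCNJ13 (0.61), C1orf210 (0.61), OCA2 (0.59), TUBA5P (0.59) and CRTC2 (0.58), and for CD55 ABCC9 (0.62), IKZF2 (0.61), ARL15 (0.6), HECW2-AS1 (0.58) and the unnamed ENSG00000291283 (0.57). Among the members the lowest such value was that of C3 with C5 (-0.54), and C3 with CFB gave 0.16. The libraries of these descriptions share groups and depth.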

How the data were processed

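Total RNA of Caco-2 cultures was depleted of ribosomal RNA and sequenced in pairs. The authors aligned the reads to GRCh38 with STAR and deposited raw read counts per gene from featureCounts, with no strand option listed; the annotation release is not given in the sources used here. Gene IDs were matched to GENCODE v44. No identical libraries were found. The 39 libraries of 3 lanes of 1 flow cell were set aside; 5 of the 66 kept libraries held under 2000000 counts.

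The counts were tested with edgeR 4.0.16 in R 4.3.3 (TMM scaling, filterByExpr with a minimum count of 10, robust quasi-likelihood F test, two-sided) in 1 fit of all 28 groups with the replicate number as a block, leaving 35 residual degrees of freedom. P-values were adjusted by Benjamini-Hochberg over 19233 genes, with a threshold of 0.05. Errors of log2 differences are standard errors, intervals are 95%, and errors of levels are SD. The method was tested on simulated data. Alternatives were the fit without the block, with the block within each time, all libraries with and without the block, no filter, other scaling, DESeq2 1.42.0, limma voom 3.58.1, and leaving out libraries.

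In the 2 contrasts of treatments or controls with 3 or more shared numbers (LcRNA with ANC100 and PmOMV with LcMV, both at 10 h) every same-numbered pair deviated together (correlation of at least 0.29), so the numbers were taken to pair the libraries. The labels do not place libraries in separate cultures, so the spread behind each p-value may be technical only. The members and lists were chosen with earlier results of these data known. Members are named where they pass the test, C3 and CFB also elsewhere, and for C3, CFB and CD55 the 5 other genes of highest correlation.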

Additional observations from a re-analysis of the deposited data

Results flagged for a closer look

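Among the set-aside libraries, C3 lay above the highest kept control library (100.9 CPM) in 6. The library labelled ANC2_10h replicate 5 had 242.8 CPM, LPStrans_24h replicate 4 had 184.5 CPM, PmRNA_10h replicate 5 had 154 CPM, LPSinc_24h replicate 4 had 146.1 CPM, PmOMV_24h replicate 5 had 112.3 CPM and LcMV_24h replicate 5 had 103.1 CPM. The set-aside library labelled PmOMV_10h had 47.8 CPM, and the 2 labelled LcMV_48h had 57.2 and 71 CPM, below the 224.5 to 250.5 CPM and 166.6 to 188.8 CPM of the kept libraries of these groups. Which libraries carry high C3 therefore differed between the set-aside and the kept libraries, and the cause was not tested.

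In the 16 sets of 4 libraries of 1 group and 1 member, no lone library stood apart, where chance alone would give about 1 in 20.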

How the results depend on the processing

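No result reversed under the 12 alternatives or the 66 fits that left out 1 library each. The choice of libraries decided most calls. With the 39 set-aside libraries added, with or without the replicate block, 0 members passed against PBS (4 in the reported fit), 0 against LPS (3), 0 for LcMV against ANC100 at 48 h (1), 0 between species (6), 0 over culture time (9) and 0 for differences of effects (2). Few of all 18775 genes passed a treatment test there: with the block, 6 for PmOMV against PBS at 10 h and 0 at 24 h. Against LPSinc 6 and 0 passed, and 0 for LcMV at 48 h against PBS or ANC100. Over culture time 1598 passed at 24 against 10 h and 12 at 48 against 24 h. C3 with PmOMV was then 1.24 log2 units over PBS at 10 h and 1.39 at 24 h without the replicate block, and 1.26 and 1.41 with it. With no replicate block in the 66 libraries, 2 members passed against PBS, 0 for LcMV against ANC100, 0 between species, 3 over culture time and 0 for differences. Of all 19233 genes that fit called 17 and 6 for PmOMV against PBS at 10 and 24 h, and 54 for LcMV at 48 h. It called 0 for LcMV against ANC100, 3771 at 24 against 10 h and 2554 at 48 against 24 h. With the replicate block within each time, 2 members passed for LcMV against ANC100, where 68 of 19233 genes did. The counts for transfection against siRNA (0), lipofection (0) and replicate 3 against 2 (8) kept their value in every alternative that gave one. Leaving out 1 library gave 0 to 1 calls for LcMV against ANC100 at 48 h, 0 without LcMV_48h replicate 2 or ANC100_48h replicate 2. C3 in LcMV against PBS at 48 h ran from 0.93 to 1.84 log2 units. Comparisons between species, times and differences of effects were not refitted without single libraries. CFB is limited by low counts and by the MANE bases it shares with another gene, and C1R, C1S and C5 by low counts.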
